A study of Mus musculus with 24 samples.

Results

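This account covers 10 genes, 9 tubulins and stathmin, followed over the day in epidermis of mice with a keratinocyte knockout of the clock activator BMAL1 and of wild-type mice. The genes were chosen by symbol as Tuba1a, Tuba1b, Tuba1c, Tubb2a, Tubb2b, Tubb4b, Tubb5, Tubb6, Tubg1 and Stmn1, and all 10 were found among the 17721 genes of the deposited table. The knockout mice, called EpiKO, carried a Bmal1 knockout driven by Cre under the keratin 14 promoter, which is active in basal keratinocytes, so melanocytes and immune cells of the epidermis are not expected targets. They were set against wild-type (WT) epidermis, whose libraries are not samples of this series. For each genotype the protocol names 8-week-old male mice, 4 at each of 6 times (ZT0, ZT4, ZT8, ZT12, ZT16 and ZT20), kept in 12 h of light and 12 h of dark, with ZT0 at lights on. The EpiKO mice are labelled C57BL/6, and back skin epidermis was sequenced as polyadenylated RNA.

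Microtubules are polymers of alpha and beta tubulin dimers. They grow from ring complexes that contain gamma tubulin, and in dividing cells they are rebuilt into the mitotic spindle. Stathmin binds free dimers and promotes disassembly, and its phosphorylation at entry into mitosis relieves that action. Cells hold several alpha and beta tubulin genes whose proteins are nearly alike, and vertebrate cells adjust tubulin mRNA to the supply of free dimers. In the epidermis the basal layer divides while the layers above it differentiate and rearrange their microtubules towards the cell cortex.

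The table gives, for each gene, a weight from 0 to 1 for each of 5 rhythm models fitted over both genotypes, and a gene is placed here in a class when 1 model has a weight of at least 0.5. The weights are not p-values. The table holds 1 fit per gene and no value per library, so the depth of a library is unknown, the spread between animals cannot be given, no test across animals could be run, and genotype cannot be told apart from any difference in how the libraries of each genotype were made. Mean levels stand on the authors' log2 scale, whose linear values exceed the total of a CPM table in both genotypes. A fold amplitude is the peak over the trough of the fitted curve. The knockout target Arntl (Bmal1) was rhythmic in WT only, with a weight of 0.882, a 4.65-fold curve and a peak at ZT22.7 in WT, per the authors' deposited table. Its mean was not lower in EpiKO, at 9.65 in EpiKO and 9.50 in WT (log2), per the authors' deposited table, and a value for the whole gene cannot show whether the deleted exons were read. As a check on the tissue, the highest mean among 10 keratinocyte markers (Krt5 and Krt14 among those listed) was 17.7 in EpiKO and 17.8 in WT (log2), against 8.23 in EpiKO and 7.99 in WT among 5 fibroblast markers and 3.42 in EpiKO and 2.91 in WT among 3 endothelial markers.

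Of the 10 genes, 2 had different rhythms in the genotypes, 1 was rhythmic in WT only, 3 had no rhythm and 4 reached no class. None was placed in the same-rhythm or the EpiKO-only class. Over all genes of the table the shares were 2.65% for different rhythms, 8.41% for WT only, 56.7% for no rhythm, 16.7% for the same rhythm, 4.31% for EpiKO only and 11.3% without a class. The genes with different rhythms were Tubb5, a beta tubulin, and Stmn1. Tubg1, the gamma tubulin that nucleates microtubules, was the WT-only gene.

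**Figure D1:**
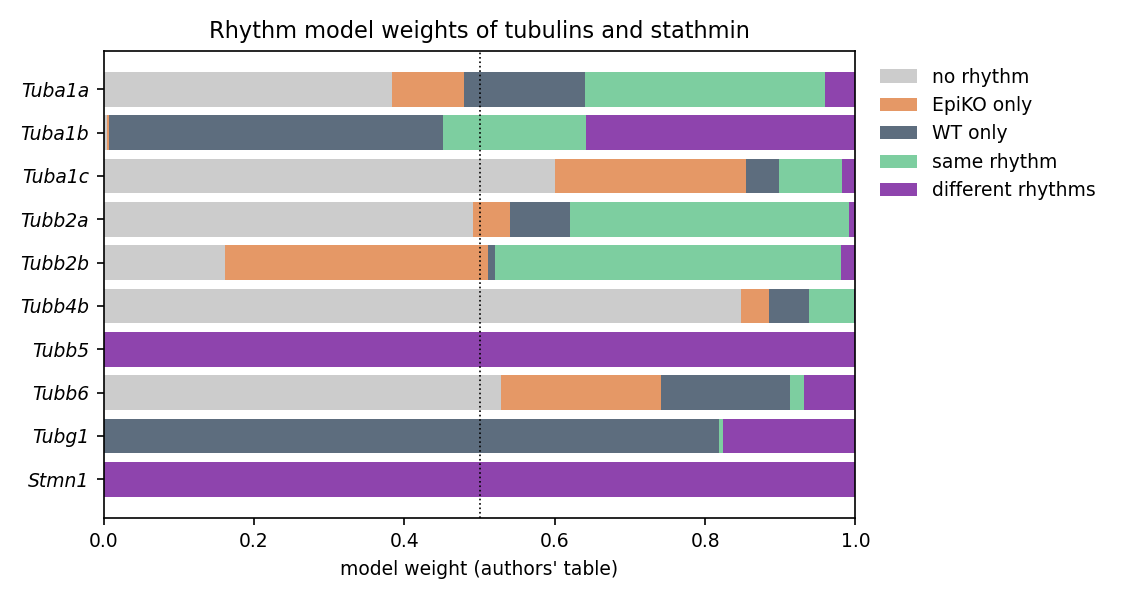
Weight of each of the 5 rhythm models (x axis, 0 to 1, from the authors' table) for the 10 genes, with a dotted line at the limit of 0.5. Tubb5 and Stmn1 are filled by the model of different rhythms, Tubg1 is mostly WT only with 0.819, and Tuba1a, Tuba1b, Tubb2a and Tubb2b have no model above the line.

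Tubb5 (ENSMUSG00000001525; chr17:35833921-35838306, minus strand, mm10) had a weight of 1.00 for different rhythms, per the authors' deposited table. Its fitted level in EpiKO was 12.47 at ZT0, 12.60 at ZT4, 12.47 at ZT8, 12.21 at ZT12, 12.08 at ZT16 and 12.21 at ZT20 (log2). In WT the fitted level was 10.79, 10.42, 10.25, 10.46, 10.83 and 11.00 at the same times. The EpiKO curve was therefore highest at ZT4, and the WT curve was lowest at ZT8 and highest at ZT20. The fitted value was higher in EpiKO than in WT at each of the 6 times. The peak stood at ZT4.03 in EpiKO and ZT19.8 in WT, per the authors' deposited table, 8.25 h later in EpiKO. The curve spanned 1.43-fold in EpiKO and 1.68-fold in WT.

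Stmn1 (ENSMUSG00000028832; chr4:134468320-134473843, plus strand) also had a weight of 1.00 for different rhythms, per the authors' deposited table. In EpiKO its fitted level was 8.72 at ZT0, 8.89 at ZT4, 8.79 at ZT8, 8.53 at ZT12, 8.36 at ZT16 and 8.45 at ZT20 (log2). The WT values were 11.19, 10.84, 10.64, 10.80, 11.16 and 11.35 at those times. As with Tubb5, the EpiKO maximum fell in the light phase and the WT maximum in the dark phase. Peaks were at ZT4.66 in EpiKO and ZT20.2 in WT, per the authors' deposited table, 8.44 h later in EpiKO. The fold amplitude was 1.45 in EpiKO and 1.63 in WT. Of the 51-base windows of Stmn1 transcripts 18.7% also occur in another gene, so reads of a near copy could be counted there.

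The tubulin subunit and the protein that binds it thus had curves of nearly the same shape in each genotype, while their mean levels lay far apart in opposite directions, as described below. Peak-to-trough heights in EpiKO were 0.691 of the WT height for Tubb5 and 0.752 for Stmn1 on the log2 scale. Over all 470 genes with different rhythms, the median of that ratio was 0.752 and the median peak difference was 5.66 h later in EpiKO. Of those 470 genes, 43 (9.15%) had a peak 8 to 9 h later in EpiKO, as both Tubb5 and Stmn1 did.

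Tubg1 (ENSMUSG00000035198; chr11:101119938-101126419, plus strand) had a weight of 0.819 for WT only and 0.176 for different rhythms, per the authors' deposited table. The fit gave it a constant 8.35 in EpiKO (log2). In WT it was 8.68 at ZT0, 8.44 at ZT4, 8.45 at ZT8, 8.69 at ZT12, 8.93 at ZT16 and 8.93 at ZT20, so its highest values were in the dark phase, at ZT16 and ZT20. The WT curve spanned 1.48-fold with a peak at ZT17.9, per the authors' deposited table, earlier than the WT peaks of Tubb5 and Stmn1.

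**Figure D2:**
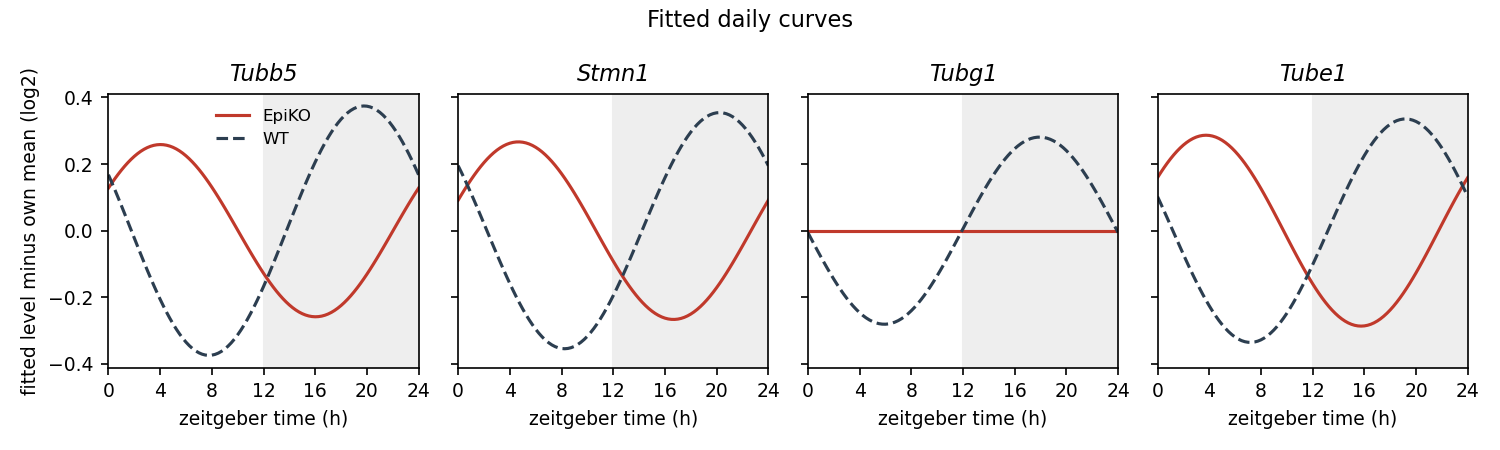
Fitted curve of Tubb5, Stmn1, Tubg1 and Tube1 over zeitgeber time, each minus its own mean (log2), with EpiKO as a solid and WT as a dashed line and the dark phase shaded. In Tubb5, Stmn1 and Tube1 the EpiKO curve peaks between ZT3.74 and ZT4.66 and the WT curve between ZT19.2 and ZT20.2, and Tubg1 is flat in EpiKO.

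The promoter is shown for Tubb5 because it was the beta tubulin with a called rhythm, and for Tubb4b because it had the largest weight for no rhythm of the 10 genes. Of the 10 genes, 6 had an entry in the RefSeq promoter table (build GRCm38.p6). The 200 bases before the transcription start are given below in the direction of transcription, at chr17:35838302-35838501 for Tubb5 and chr2:25224703-25224902 for Tubb4b, both on the minus strand. Capitals mark CCAAT, the core bound by NF-Y at many cell cycle promoters, and CACGTG, the E-box bound by CLOCK and BMAL1, on either strand.
Tubb5: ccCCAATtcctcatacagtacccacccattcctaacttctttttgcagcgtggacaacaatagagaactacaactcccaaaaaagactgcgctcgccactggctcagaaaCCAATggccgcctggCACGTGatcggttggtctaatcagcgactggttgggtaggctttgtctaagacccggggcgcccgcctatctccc
Tubb4b: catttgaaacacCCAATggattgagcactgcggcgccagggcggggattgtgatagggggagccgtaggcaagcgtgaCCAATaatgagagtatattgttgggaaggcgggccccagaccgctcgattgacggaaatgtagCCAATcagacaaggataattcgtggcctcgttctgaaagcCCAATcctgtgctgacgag
Tubb5 had 2 matches to CCAAT, or ATTGG on the other strand, and 1 to CACGTG, which began 75 bases before the start. Tubb4b had 4 matches to CCAAT and none to CACGTG. In windows of the same length, 29.3% of 32851 promoters held CCAAT and 5.26% held CACGTG. Among the other 4 promoters, Tuba1a and Tuba1c had 1 CCAAT each, and Tuba1b and Tubb2a had neither motif. TTTGAA, or TTCAAA on the other strand, was in Tubb4b alone of the 6 and in 12.5% of all promoters. TTTAAA (9.40% of all), TTCCCGC or its reverse GCGGGAA (3.28%) and TTATGTAA or its reverse TTACATAA (0.679%) were in none of the 6. These are matches of letters and not evidence of binding.

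The remaining alpha and beta tubulins had no called rhythm, being either in the no-rhythm class or without a class. Tubb4b was placed in the no-rhythm class with a weight of 0.848, Tuba1c with 0.601 and Tubb6 with 0.528, per the authors' deposited table. For Tuba1b the model of a WT-only rhythm had 0.444 and that of different rhythms 0.359, per the authors' deposited table. Summed over the models that give WT a rhythm, the weight of Tuba1b was 0.993, and over those that give EpiKO a rhythm it was 0.552. The models thus differed mainly in whether EpiKO had a rhythm. Its WT curve spanned 1.30-fold with a peak at ZT21.7, per the authors' deposited table, in the same part of the night as Tubb5 and Stmn1.

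Tubb2b had 0.461 for the same rhythm and 0.349 for EpiKO only, per the authors' deposited table. Its summed weight for a rhythm was 0.829 in EpiKO and 0.489 in WT. The leading model gave a 1.44-fold curve with a peak at ZT0.280 in both genotypes, per the authors' deposited table. Tubb2a (0.491 for no rhythm, 0.371 for the same rhythm) and Tuba1a (0.384 and 0.319) were divided between those models, per the authors' deposited table. Tuba1a (chr15:98949837-98953703), Tuba1b (chr15:98931425-98934565) and Tuba1c (chr15:99029891-99038110) are neighbours on chromosome 15, and the leading model was no rhythm for Tuba1a and Tuba1c and WT only for Tuba1b. Tubb2a (chr13:34074274-34078007) and Tubb2b (chr13:34126748-34130466) are likewise close to each other, and Tubb4b lies at chr2:25222160-25224702.

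By the rule for likeness, the genes of the same class with the smallest distance between the 4 cosine and sine coefficients of both genotypes were named, 3 for each gene with a called rhythm. Nearest to Tubb5 among 457 candidates were Tube1 (distance 0.0757, log2), which encodes epsilon tubulin, a protein of centrioles, then Tbc1d31 (0.0850) and Smc2 (0.105), a condensin subunit. For Stmn1 they were Smc2 (0.0628), Spdl1 (0.0994), which helps to recruit dynein to kinetochores, and Tbc1d31 (0.104). Tubb5 and Stmn1 therefore had Smc2 and Tbc1d31 in common. Nearest to Tubg1 among 1453 candidates, judged on the WT curve since EpiKO had none, were the nuclear pore gene Ndc1 (0.00884), Mpdz (0.0129) and the actin crosslinker Actn1 (0.0196).

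Tube1 was fitted with a weight of 0.982 for different rhythms and peaks at ZT3.74 in EpiKO and ZT19.2 in WT, per the authors' deposited table. Its curve spanned 1.49-fold in EpiKO and 1.59-fold in WT, and the peak was 8.56 h later in EpiKO. Its mean was 6.47 in EpiKO and 6.18 in WT (log2), per the authors' deposited table. Tubg2, the second gamma tubulin gene, was rhythmic in WT only, as Tubg1 was, with 1.41-fold at ZT19.2, per the authors' deposited table. Tubd1 for delta tubulin just missed a class, with 0.498 for the same rhythm, per the authors' deposited table.

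The high-level alpha tubulins outside the 10 genes had a rhythm that did not differ between genotypes in the chosen model. Tuba4a had 1.41-fold at ZT20.5, and Tuba8 had 1.72-fold at ZT21.3, per the authors' deposited table. Their shared peak was in the dark phase, where the WT but not the EpiKO peak of Tubb5 lay. Tuba3a, Tuba3b and Tubal3 had no rhythm. Of the beta tubulins, Tubb4a had no rhythm and Tubb3 no class, and Stmn2, Stmn3 and Stmn4 had no rhythm. Tubb3 and Stmn2, which mark neurons, had levels of 1.48 and 0.97 in EpiKO and 1.48 and -0.15 in WT (log2), per the authors' deposited table, close to the bottom of its range.

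Genes that fold, nucleate, modify and organise tubulin were split among the classes. Of 87 such genes in the table, with other tubulins and stathmins included, 13 had different rhythms, 10 had a WT-only rhythm, 6 an EpiKO-only one, 17 the same one, 32 none and 9 no class. The shares of all genes in these classes were 2.65%, 8.41%, 4.31%, 16.7%, 56.7% and 11.3% in that order. Folding cofactors, which assemble the tubulin dimer, had a common rhythm in 4 of 8 genes and none with different rhythms. Their amplitudes were small, at 1.24-fold for Arl3 (ZT19.7), 1.18-fold for Tbcb (ZT21.0) and 1.13-fold for Tbcd (ZT6.49) and for Tbce (ZT7.12), per the authors' deposited table. Of 17 genes of the gamma-tubulin ring complex and the augmin complex that branches microtubules, 3 had different rhythms, 4 were WT only, 1 EpiKO only and 2 had the same rhythm. Cdk5rap2, which anchors ring complexes at centrosomes, peaked at ZT4.83 in EpiKO and ZT22.6 in WT, with 1.50-fold and 1.54-fold, per the authors' deposited table. The augmin subunits Haus8 (ZT2.19 in EpiKO, ZT17.5 in WT) and Haus4 (ZT4.08 in EpiKO, ZT15.7 in WT) also peaked in the light phase in EpiKO, per the authors' deposited table. Haus5, which shared 53.0% of its 51-base transcript windows with other genes, was rhythmic in WT only, with 1.40-fold, per the authors' deposited table.

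Enzymes acting on tubulin tails and acetylation had 5 of 18 genes with the same rhythm, 2 WT only, 2 EpiKO only and 1 with different rhythms. Vash1, a tail detyrosinating enzyme, had 1.53-fold at ZT20.5 and the ligase Ttll7 had 1.43-fold at ZT19.5 in both genotypes, per the authors' deposited table. Ttll4 was WT only with 1.32-fold, per the authors' deposited table. Agbl2 had different rhythms, with 3.85-fold in EpiKO and 4.05-fold in WT at a low mean of 2.86 (log2), per the authors' deposited table. Of 31 microtubule-associated and severing proteins, 8 had different rhythms, with mean peaks at ZT5.30 in EpiKO and ZT22.9 in WT. Among these were the spindle genes Nusap1 (2.26-fold in EpiKO, 3.85-fold in WT), Ckap2 (2.22-fold in EpiKO, 2.71-fold in WT) and Tpx2 (1.96-fold in EpiKO, 2.68-fold in WT), per the authors' deposited table. Fign was EpiKO only at a mean of -1.26 in EpiKO and 5.42 in WT (log2), near the bottom of the range in EpiKO, per the authors' deposited table.

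The peaks were then set beside those of cell division genes. Different rhythms were called in 24 of 26 mitosis genes, 13 of 22 kinesins and 6 of 25 DNA replication genes, beside 2.65% of all genes. In EpiKO, Tubb5 and Stmn1 peaked at a mean of ZT4.34, against ZT5.76 for those mitosis genes, ZT5.94 for those kinesins and ZT2.29 for those replication genes. In WT the mean was ZT20.0 for Tubb5 and Stmn1, against ZT22.5 for those mitosis genes, ZT22.6 for those kinesins and ZT15.8 for those replication genes. Another 17 of the 25 replication genes were WT only, beside 8.41% of all genes. They peaked at a mean of ZT14.2, and Tubg1 lay between them and Tubb5. Among genes with different rhythms, Tubb5 and Stmn1 thus came in each genotype after the mean of the replication genes. They came before that of the mitosis genes and kinesins. Single genes did not all keep this order in EpiKO. The replication gene Rrm1 (ZT4.23) peaked after Tubb5, and the mitosis genes Ndc80 (ZT4.40) and Incenp (ZT4.42) before Stmn1. The peak was later in EpiKO by 6.12 to 8.91 h for the mitosis genes and by 6.25 to 8.41 h for the kinesins with different rhythms. For the replication genes with different rhythms the difference ran from 8.16 h (Rrm2) to 11.9 h (Rrm1), except for Cdt1 at -11.1 h. Median fold amplitudes of the mitosis genes with different rhythms were 2.02 in EpiKO and 2.77 in WT, above those of Tubb5 and Stmn1 in both genotypes. Kif14, a kinesin of cytokinesis, spanned 2.60-fold in EpiKO and 3.68-fold in WT, and Kif22 2.36-fold and 3.19-fold in that order, per the authors' deposited table. The kinase Plk1 spanned 2.08-fold in EpiKO and 3.72-fold in WT, and the kinetochore gene Spc25 2.04-fold in EpiKO and 3.27-fold in WT, per the authors' deposited table. The replication gene Mcm10 spanned 1.66-fold in EpiKO and 2.79-fold in WT, and Orc1 was WT only with 3.60-fold, per the authors' deposited table. These are means over genes with no test, and in bulk RNA a change in the number of dividing cells and a change in RNA per cell cannot be told apart.

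**Figure D3:**
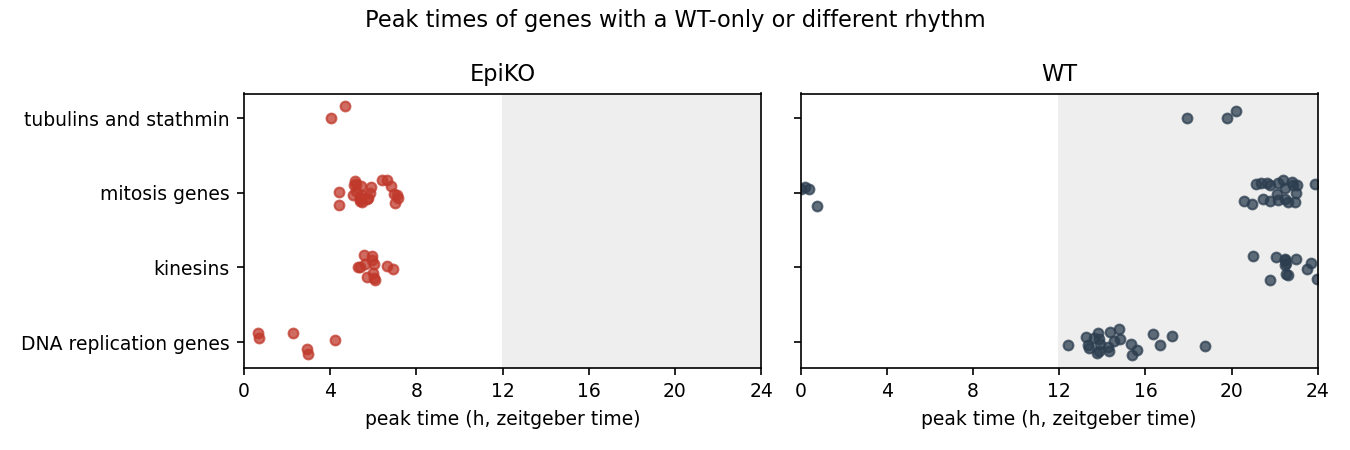
Peak time (x axis, h) of each gene with a WT-only or different rhythm, in EpiKO (left) and WT (right), by gene group, with the dark phase shaded. In EpiKO, Tubb5 and Stmn1 lie at ZT4.03 and ZT4.66, and in WT Tubb5, Stmn1 and Tubg1 lie from ZT17.9 to ZT20.2. Among genes with different rhythms, the EpiKO means are ZT2.29 for replication and ZT5.76 for mitosis, and the WT means are ZT15.8 and ZT22.5. The 17 WT-only replication genes have a mean of ZT14.2.

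Mean levels over the day were then compared. Of the 10 genes, 8 had a lower mean in EpiKO, 1 a higher one and 1 the same mean, by the authors' model of the mean with a weight of at least 0.5. Over all genes, 37.4% were lower in EpiKO and 32.7% higher. By size, 6 of the 10 genes were lower by 1 or more (log2), beside 16.8% of all genes, and 1 was higher by 1 or more, beside 4.53%. The median difference over all genes was 0, and the median over the 10 genes was -1.19 (log2).

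Within the 10 genes, the 3 alpha tubulins had a larger difference in summed level than the 5 beta tubulins. Values in parentheses after a pair of means are EpiKO minus WT (log2). Tuba1b averaged 8.49 in EpiKO and 11.36 in WT, 7.33-fold lower in EpiKO, per the authors' deposited table. Tuba1a averaged 8.65 in EpiKO and 10.58 in WT (-1.93), and Tuba1c 9.54 in EpiKO and 11.21 in WT (-1.68), per the authors' deposited table. On the linear scale the 3 alpha genes summed to 1505 in EpiKO and 6540 in WT. The 5 alpha tubulins outside the 10 genes, Tuba4a among them, summed to 3748 in EpiKO and 3855 in WT. Most of that sum came from Tuba4a, fitted with 1 mean of 11.67 (log2) for both genotypes. By gene, 4 of these 5 were lower in EpiKO and 1 had the same mean, with a median difference of -2.62 (log2). The near-equal sums thus do not describe each of the 5 genes. The Tuba1b level in EpiKO thus lay below the lowest point of its WT curve, which spanned only 1.30-fold.

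Beta tubulins went both ways. Tubb4b averaged 12.34 in EpiKO and 13.55 in WT (-1.21), Tubb2a 8.90 in EpiKO and 10.07 in WT (-1.18) and Tubb2b 7.11 in EpiKO and 7.97 in WT (-0.86), per the authors' deposited table. Tubb5 was the exception, with 12.34 in EpiKO and 10.62 in WT, 3.29-fold higher in EpiKO, per the authors' deposited table. Tubb6 was fitted with 1 common mean of 6.65, with a weight of 0.839, per the authors' deposited table. The 5 beta genes summed to 11091 in EpiKO and 14975 in WT on the linear scale. Of that sum Tubb5 made up 46.8% in EpiKO and 10.5% in WT.

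Stmn1 averaged 8.62 in EpiKO and 11.00 in WT (5.19-fold lower in EpiKO), and Tubg1 8.35 in EpiKO and 8.69 in WT (-0.34), per the authors' deposited table. Divided by exon length, the highest level of the 10 genes belonged to Tubb4b in both genotypes, at 11.28 in EpiKO and 12.48 in WT (log2 per kb). Second was Tubb5 in EpiKO, at 10.61, and Tuba1b in WT, at 10.46. Lowest in both was Tubb6, at 5.37. The spread of these values over animals is unknown, so neighbours in this order may not differ.

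**Figure D4:**
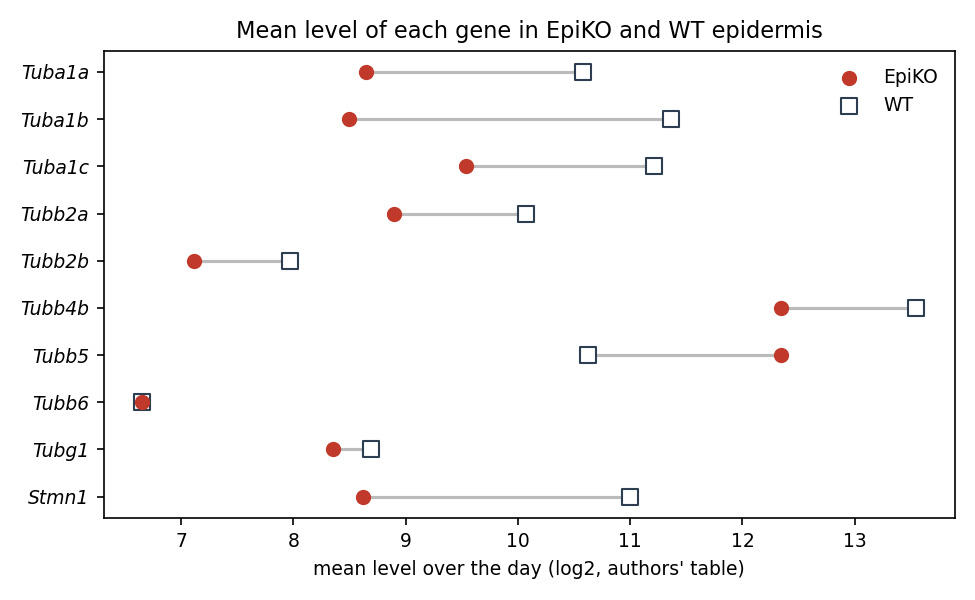
Mean level over the day (x axis, log2, authors' table) of each gene in EpiKO (filled circles) and WT (open squares), joined by a line. The 8 genes with a lower mean in EpiKO have the circle on the left, Tubb5 has it on the right at 12.34 against 10.62, and for Tubb6 the symbols coincide at 6.65.

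Sequence shared between genes moved with the differences of the alpha tubulins and of Tubb2a, Tubb2b and Tubb4b. The protocol of the EpiKO libraries gives reads of 51 bases, so the share of each gene's 51-base transcript windows that also occur in transcripts of another gene was counted in GENCODE M21. It was 75.4% for Tuba1a, 74.9% for Tuba1b, 52.5% for Tuba1c, 49.3% for Tubb2a, 40.8% for Tubb4b and 36.6% for Tubb2b. Stmn1 had 18.7% and Tubg1 10.8%, while Tubb5 had 0.0297% and Tubb6 had none. The 8 genes with a lower mean in EpiKO were thus the 8 with over 5% of windows shared, and the 2 with almost none were the gene that was higher and the gene that did not differ. Across all genes with a level of at least 7 (log2, mean of both genotypes), the median difference was -2.03 for 135 genes with over 50% shared and -0.64 for 655 genes with over 20% to 50%. It was 0 for 1679 genes with over 5% to 20%, the range of Stmn1 and Tubg1, 0 for 3583 genes with over 0% to 5%, the range of Tubb5, and 0.12 for 3642 genes with none. The share lower by 1 or more was 75.6%, 34.2%, 7.86%, 4.49% and 0.796% in these 5 ranges, from most to least shared. With no limit on the level, that share was 84.9%, 42.7%, 17.1%, 15.2% and 6.68% in the same ranges, and the median difference was -4.06, -0.76, 0, 0 and 0. Stmn1, at -2.37, thus stood well below the median of its range, unlike Tubg1 at -0.34. No source used here gives how reads that fit several genes were counted in each genotype, and the part of shared sequence in the tubulin differences was not tested.

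**Figure D5:**
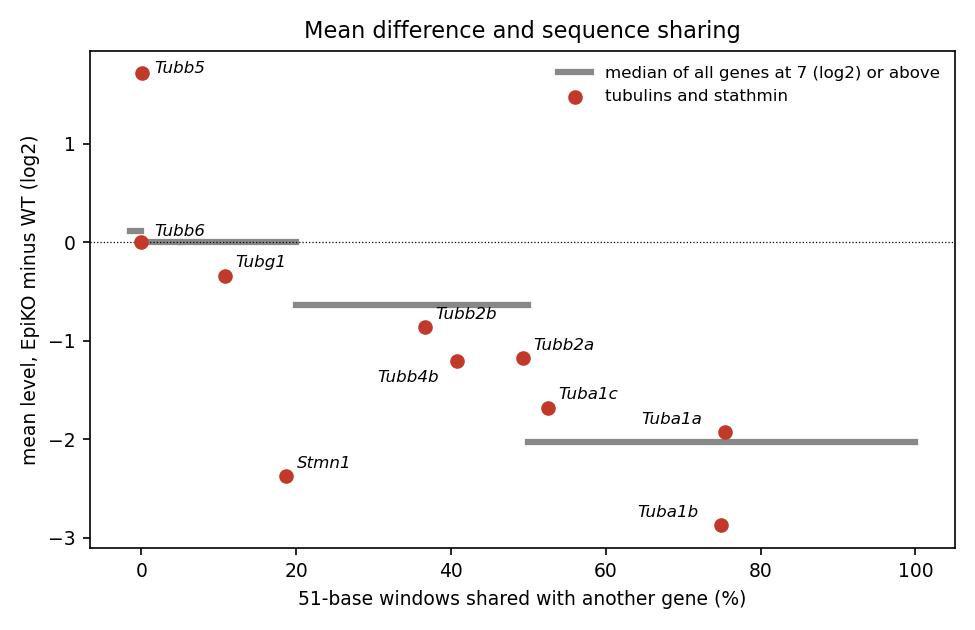
Difference in mean level, EpiKO minus WT (y axis, log2), against the share of 51-base windows found in another gene (x axis, %), for the 10 genes (points), with grey bars at the median of all genes at a level of 7 (log2) or above in each range of sharing. The 3 alpha tubulins at 52.5% or more lie from -2.87 to -1.68 around a bar at -2.03, Tubb5 and Tubb6 lie at the left edge at 1.72 and 0, and Stmn1 lies below its bar.

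Partners of the shared windows were genes and processed pseudogenes. Tuba1b shared 53.4% of its windows with Tuba1c and 40.2% with Tuba1a, and Tubb2a shared 45.4% with Tubb2b. Tubb4b shared 32.1% with the pseudogene Tubb4b-ps1, and Stmn1 17.8% with the pseudogene Gm11223, neither of which has a row in the table. Tubg1 shared 10.7% with Tubg2. An annotated gene, Gm49450, spans Tuba1a and Tuba1b on their own strand, and Tubb4b overlaps Fam166a and Tuba1b overlaps Gm41396 on the opposite strand. Coding sequences of Tuba1a and Tuba1b were identical at 98.3% of 1353 bases, and those of Tubb4b and Tubb5 at 82.4% of 1332 bases.

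The sequences below show where a read of 51 bases can and cannot tell these genes apart. Each is a 51-base stretch of coding sequence, 5′ to 3′, from the GENCODE M21 transcripts (mm10), and capitals mark positions at which the genes compared differ. Among the alpha tubulins, the stretch with the most differences within the first 1200 coding bases, 10 positions, was coding bases 649 to 699 in exon 4, at chr15:98950691-98950741 for Tuba1a, chr15:98932239-98932289 for Tuba1b and chr15:99037308-99037358 for Tuba1c, and there Tuba1b and Tuba1c are still alike.
Tuba1a: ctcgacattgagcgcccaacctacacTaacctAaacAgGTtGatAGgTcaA
Tuba1b: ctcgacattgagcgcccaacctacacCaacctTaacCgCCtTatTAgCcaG
Tuba1c: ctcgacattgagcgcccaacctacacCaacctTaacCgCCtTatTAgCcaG
For the beta tubulins, coding bases 397 to 447 in exon 4 were the first stretch in which Tubb2a and Tubb2b are identical, while Tubb5 and Tubb4b are not. They lie at chr17:35835870-35835920 for Tubb5, chr2:25223199-25223249 for Tubb4b, chr13:34075359-34075409 for Tubb2a and chr13:34128362-34128412 for Tubb2b.
Tubb5: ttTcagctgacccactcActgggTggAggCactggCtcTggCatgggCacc
Tubb4b: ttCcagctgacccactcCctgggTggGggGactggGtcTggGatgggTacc
Tubb2a: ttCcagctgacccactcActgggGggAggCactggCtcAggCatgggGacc
Tubb2b: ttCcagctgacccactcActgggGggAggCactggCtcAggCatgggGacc
Of 1303 such stretches compared between Tuba1a and Tuba1b, 753 were identical, and between Tubb5 and Tubb4b none of 1282 was.

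Other tubulins with shared windows did not all differ in mean. Tuba4a shared 35.3% of its windows and was fitted with 1 mean of 11.67 for both genotypes, per the authors' deposited table. Tubg2 (13.9% shared) averaged 3.83 in EpiKO and 6.61 in WT, and Tubal3 (0.317% shared) 1.77 in EpiKO and 4.39 in WT (log2), per the authors' deposited table. Tuba3a (34.5% shared) averaged -1.69 in EpiKO and 2.38 in WT, and Tuba3b (29.0% shared) -2.41 in EpiKO and 2.30 in WT (log2), per the authors' deposited table. The value of Tuba3b in EpiKO is one that 513 genes share there and is the commonest value, so no fold is given. Of 12885 genes with up to 5% of windows shared, 193 (1.50%) were higher in EpiKO by at least as much as Tubb5, and of the 7225 of these at a level of at least 7 (log2), 36 (0.498%) were.

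Marker genes of cell types went in both directions. The 10 keratinocyte markers summed to 734429 in EpiKO and 798654 in WT on the linear scale, with means from 8.68 to 17.7 in EpiKO and 8.68 to 17.8 in WT (log2). Of these, 4 were lower and 2 higher in EpiKO. The shares over all genes, 37.4% lower and 32.7% higher, stand beside this and each marker count that follows. Langerhans cell markers were higher in 3 of 4 cases (summed 3963 in EpiKO, 2780 in WT), fibroblast markers in 3 of 5 (868 and 698 in the same order), endothelial markers in 3 of 3 (13.9 and 8.47) and T lymphocyte markers in 1 of 3 (327 and 239). Hair follicle markers were lower in 2 of 5 (344 in EpiKO, 1889 in WT), melanocyte markers in 2 of 5 (357 and 780) and neuron and Schwann cell markers in 1 of 5 with 1 higher (61.6 and 903). Merkel cell markers had 1 of 4 lower and 1 higher (8.02 and 9.91). The part of these cell types in the tubulin and stathmin levels was not tested.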

How the data were processed

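RNA-seq was made from 24 EpiKO libraries, 4 at each of 6 times. Tools listed by the submitters' processing notes are edgeR, featureCounts 1.6.0, HISAT2 2.2.1, SAMtools 1.3.1 and Trimmomatic 0.36, with build mm10. The kit was stranded, and no source used here gives the strand setting of the counting. Rhythms were compared with WT by dryR, per the series design text. The 1 file has 17721 genes and no value per library. As the authors deposited them, a model weight is a score from 0 to 1 made from the Bayesian information criterion, means, coefficients and amplitudes are on a log2 scale, and peak times are in hours. With 2 sides in the comparison, the one not named WT was read as EpiKO. Amplitudes and peak times recomputed from the coefficients matched those deposited within 1e-06 for all 5062 EpiKO and 5914 WT rhythms. The planned count test of rhythm across EpiKO libraries was not run, as no counts are held.

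Classes need a weight of at least 0.5. No test over genes was made. The genes and lists were chosen with earlier results of these data known. Named are the 10 genes, other tubulins and stathmins, up to 4 called genes per list by amplitude, 2 per comparison list by WT amplitude and the 3 nearest genes to each rhythmic one. Symbols matched 17720 identifiers. Positions come from GENCODE M21 and promoters from RefSeq (GRCm38.p6). Window counts and curve formulas were tested on simulated data. Python 3.11.15, NumPy 2.4.6, pandas 2.3.3 and Matplotlib 3.10.9 were used. Alternatives were other weight limits, a minimum amplitude, an expression limit, summed weights, centring of means, a minimum mean difference and, in part added after seeing the data, genes with under 5% shared windows.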

Additional observations from a re-analysis of the deposited data

How the results depend on the processing

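Of the 10 genes, 2 kept different rhythms under every limit on the weight, the minimum amplitude and the expression limit, and the weights of that model summed to 2.69. Among genes with under 5% of windows shared, which leaves Tubb5 and Tubb6, the count was 1 for different rhythms, 0 for WT only and 1 for no rhythm, by construction of fewer genes. With no minimum weight, or with 0.4, WT only held 2 genes and the same rhythm 1, and with no minimum the no-rhythm count was 5. A limit of 0.8 left 1 gene without rhythm. Summed weights were 1.78 for WT only, 1.51 for the same rhythm and 1.00 for EpiKO only, so rhythms of unsettled genes add weight to classes with no called gene. The 8 lower means became 0 among genes with under 5% shared windows, and the higher one remained 1. That outcome was fixed in advance, since all 8 had over 5% shared, and this limit on means was added after seeing the data. In the pathway lists, the same-rhythm count was 11 at 0.8 and 10 with few shared windows, and the WT-only count 4 and 6. For DNA replication genes the WT-only count was 10 with few shared windows. The limit on shared windows left 62 of 87 pathway genes and 17 of 25 replication genes. Counts under it, or at 0.8, could only stay or fall, as genes are only removed. What else sets the removed genes apart was not tested. Of 72 alternative values 54 stayed within 1.5 times the main one and 18 did not. No paired analysis was possible because the table holds no value per library, and leaving out animals was not run for the same reason.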
